A study of Mus musculus with 8 samples.

Results

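Mitochondria in muscle fibres join and divide, and genes of this machinery were described together with the muscle gene Mss51. These 10 genes were read on all probe sets that the array annotation pairs with exactly 1 of their symbols. A probe set is a group of short oligonucleotide probes that reads the 3' part of a transcript. The 10 genes had 25 such probe sets, of 34958 with 1 symbol for 18194 genes. Dnm1l, Mff and Yme1l1 had 4 each, Mfn1 and Opa1 had 3, Mfn2 and Fis1 had 2, and Oma1, Mtfp1 and Mss51 had 1. Total RNA of the quadriceps of adult male C57Bl/10 mice was hybridised to 8 Affymetrix mouse arrays, 1 per sample. The 4 Hypoxia samples came from mice in a sealed chamber where oxygen was lowered in steps from 21% to 8% during a week and then held at 8% for 7 days. The 4 Control samples came from mice kept at room conditions over the same 2 weeks, so the chamber and the low oxygen cannot be told apart. No genetic change or other agent is named for either group. The labels name each quadriceps but not the animals, so p-values measure the spread between these samples only.

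Fusion of the outer membrane is carried out by the mitofusins Mfn1 and Mfn2, and fusion of the inner membrane by the dynamin-like GTPase Opa1. Opa1 is cut into short forms by the inner membrane proteases Oma1, which responds to stress, and Yme1l1. Fission needs the cytosolic GTPase Drp1, encoded by Dnm1l, which is drawn to the outer membrane by adaptors such as Mff and Fis1, and Mtfp1 is an inner membrane protein that promotes fission. Mss51 is known in mammals as a mitochondrial protein enriched in fast glycolytic muscle, and its yeast relative promotes synthesis of a cytochrome oxidase subunit.

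After hypoxia Mss51 and Mtfp1 had far lower transcript signals, Oma1 was moderately lower and Mfn2 was moderately higher. No tested probe set of Mfn1, Yme1l1, Dnm1l or Fis1 passed the threshold given below. Changes are log2 differences of signal plus 16, Hypoxia minus Control, with standard errors (SE) from a limma fit over all probe sets. A probe set passed at a Benjamini-Hochberg adjusted p under 0.05. Of the 25 probe sets 21 were bright enough to be tested, and 6 of these 21 passed (28.6%), 2 higher and 4 lower. Of all 27023 probe sets tested, 28.8% passed, 12.5% higher and 16.4% lower, so the share that passed in this gene group was near that of the whole array. The groups did not overlap on 7 of the 21 probe sets, 3 with Hypoxia above and 4 with Hypoxia below, beside 30.1% of all those tested (13.1% above and 17.0% below). The median change of the 21 probe sets was 0.01, and that of all tested probe sets was -0.04. The median over all tested probe sets became 0.04 after quantile normalization, so changes of this size have no firm direction.

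**Figure D1:**
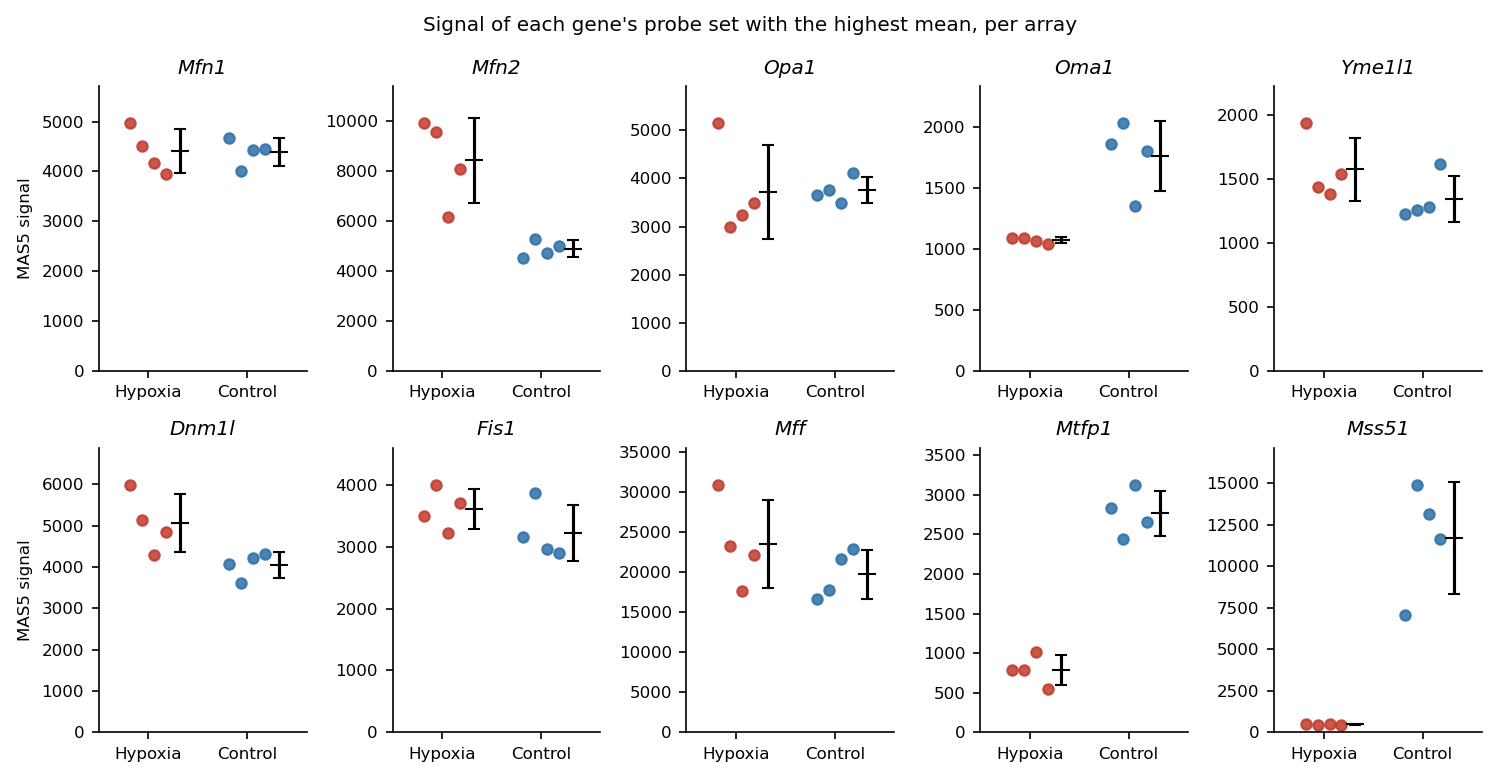
Signal of each gene on the probe set with the highest mean, 1 point per array, with Hypoxia left of Control in every panel. The y axis is the linear MAS5 signal and starts at 0, and bars are the mean and SD of 4 arrays. Mss51 and Mtfp1 show wide gaps between the groups, Oma1 and Mfn2 narrower ones, and the other genes overlap.

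Several measurements of the whole series bear on these values. Gapdh control probe sets at the 3' and the 5' end of the transcript give a ratio that is higher where RNA is broken or incompletely copied, and it was 3.44 in Hypoxia 1, 0.801 to 0.874 in Hypoxia 2 to 4 and 0.776 to 0.807 in Control. For beta-actin it was 2.53 in Hypoxia 1, 1.40 to 1.59 in Hypoxia 2 to 4 and 1.09 to 1.25 in Control. The defining muscle fibre markers were bright in every array, with a summed signal of 5 genes between 153427 and 194318 in Hypoxia and between 221518 and 276195 in Control, and 4 of the 5 fell. All 5 fibroblast markers and both measured adipocyte markers fell, 2 of 3 measured neutrophil markers rose, and none of 5 endothelial markers passed. Of 5 macrophage markers Cd68 rose by 3.93, Adgre1 and Csf1r fell by 0.85 and 0.88, and 2 did not pass. In bulk tissue, fewer cells of a type and less RNA per cell cannot be told apart.

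Mss51 had the largest change of the group. Its signal was 536.5, 453.6, 522.4 and 454.7 in Hypoxia 1 to 4, against 7058.1, 14910.0, 13148.6 and 11610.0 in Control 1 to 4. The lowest Control value was 13.2-fold above the highest Hypoxia value, and the Hypoxia arrays lay close to each other while Control 1 was well below the other Control arrays. Mss51 fell by 4.48 on the log2 scale (SE 0.21, 22.3-fold, n = 4 per group, adjusted p = 5.78e-08), the change in rank 16 from the largest fall among the 27023 probe sets. Without Hypoxia 1 the change was -4.52. Mss51 is read by 1 probe set, so no other probe set checks its size. Of 6 fast fibre markers, 4 fell, and their summed signal was 170576 to 234301 in Hypoxia and 295160 to 355210 in Control. The largest of these falls was that of Pvalb, the calcium buffer parvalbumin of fast fibres, at -2.28. None of 5 slow fibre markers passed. Their summed signal ranged more widely in Hypoxia (7205.4 to 26166.5) than in Control (10303.2 to 14064.4). The part of fibre type in the change of Mss51 was not tested.

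Mtfp1, the inner membrane protein of fission, had signals of 786.5, 790.1, 1013.5 and 547.3 in Hypoxia 1 to 4, against 2828.8, 2446.1, 3126.3 and 2649.6 in Control 1 to 4. Every Hypoxia value lay below every Control value, and the closest of them differed 2.41-fold. Mtfp1 fell by 1.82 on the log2 scale (SE 0.19, 3.54-fold, n = 4 per group, adjusted p = 1.95e-05), and without Hypoxia 1 the change was -1.83. This gene too has 1 probe set.

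Among the other genes of fission, no change held across the probe sets of a gene. Dnm1l, which encodes Drp1, had signals of 5992.5, 5138.4, 4290.0 and 4836.9 in Hypoxia 1 to 4, against 4074.0, 3604.0, 4218.7 and 4308.6 in Control 1 to 4, on its brightest probe set. The groups overlapped only between Hypoxia 3 and Control 4, and the change of 0.31 did not pass (95% interval 0.01 to 0.62, unadjusted p = 0.0458, adjusted p = 0.12 by limma). Another Dnm1l probe set changed by 0.01. A further one, of a type that can bind transcripts of other genes, was at 46.8 in Hypoxia 1, at 322.8 to 373.4 in Hypoxia 2 to 4 and at 321.5 to 558.2 in Control. Its change of -0.89 did not pass and became -0.25 without Hypoxia 1.

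The outer membrane adaptor Mff had 3 tested probe sets, with changes of 0.24, 0.09 and 0.72. The probe set at 0.72 had signals of 1551.4, 1478.6, 877.8 and 1310.8 in Hypoxia 1 to 4, against 830.6, 669.8, 764.0 and 814.3 in Control 1 to 4. Hypoxia 3 came nearest to Control, yet the groups did not overlap, and the probe set rose (SE 0.19, 1.65-fold, adjusted p = 0.0131). It is of a type that can bind other transcripts. The brightest Mff probe set is of the same type and did not pass (23520 ± 5517 in Hypoxia and 19743 ± 3033 in Control, SD, n = 4 each, adjusted p = 0.358 by limma), so whether Mff rose is uncertain. The Mff probe set below the filter was not tested, with 58.9 ± 12.3 in Hypoxia and 88.35 ± 14.6 in Control (SD, n = 4 each) and overlapping groups. Fis1, the other adaptor, had signals of 1403.5, 1445.6, 1077.0 and 1368.5 in Hypoxia 1 to 4, against 1042.3, 1057.2, 719.7 and 988.0 in Control 1 to 4, on its dimmer probe set. These groups did not overlap, but the change of 0.48 did not pass (adjusted p = 0.0558), and it passed after quantile normalization (0.53, adjusted p = 0.0353). The dimmer Fis1 probe set is also of the type that can bind other transcripts. The brighter Fis1 probe set changed by 0.17 with overlapping groups and did not pass (adjusted p = 0.417).

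**Figure D2:**
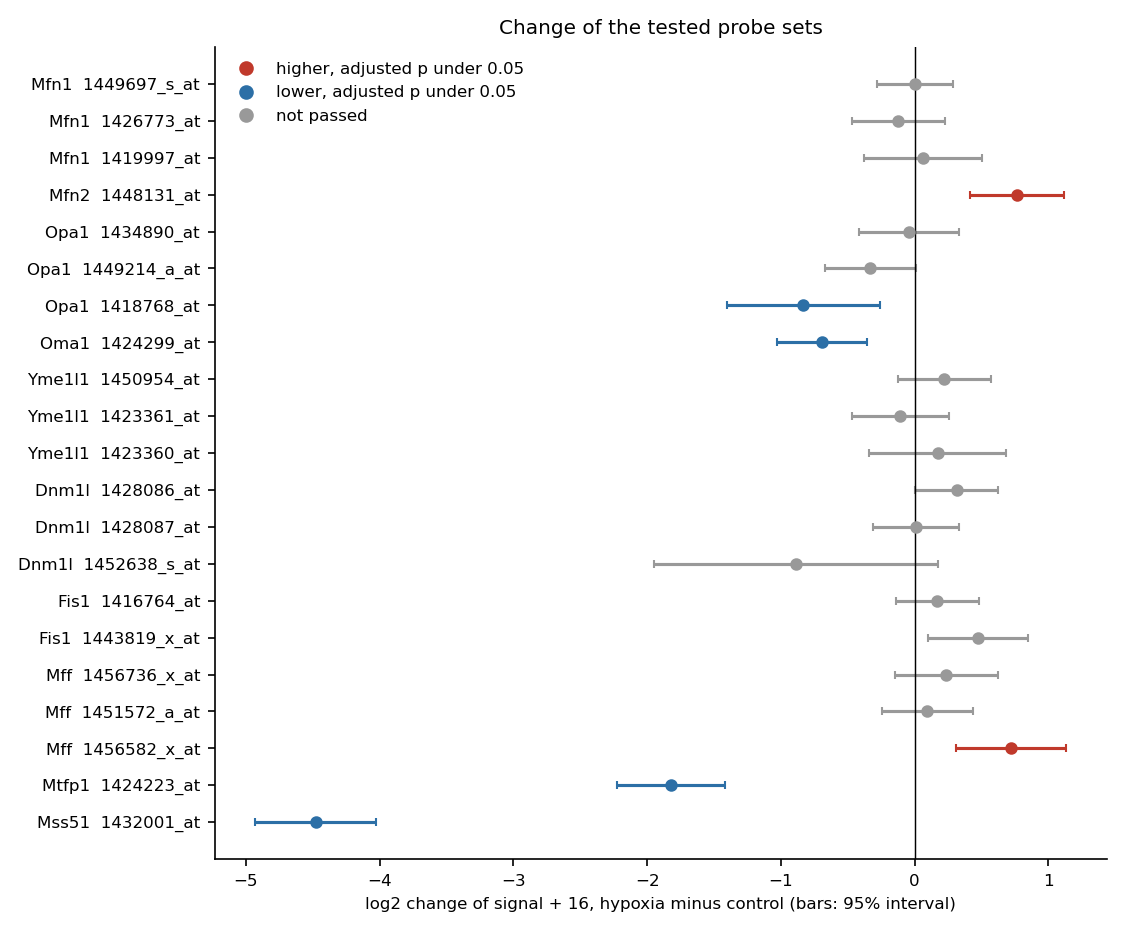
Log2 change of signal plus 16, Hypoxia minus Control, of the 21 tested probe sets, labelled by gene and probe set, with bars for the 95% interval of the limma fit. Red points passed as higher and blue points as lower, and grey points did not pass. Mss51 at -4.48 and Mtfp1 at -1.82 stand far left, and the intervals of most other probe sets include 0.

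The mitofusins differed from each other. Mfn2, which fuses outer membranes and also tethers mitochondria to the endoplasmic reticulum, had signals of 9904.5, 9559.2, 6157.4 and 8065.5 in Hypoxia 1 to 4, against 4501.1, 5286.1, 4721.4 and 5005.5 in Control 1 to 4. Hypoxia 3 was the lowest of its group and still 1.16-fold above the highest Control value. Mfn2 rose by 0.76 on the log2 scale (SE 0.16, 1.70-fold, n = 4 per group, adjusted p = 0.00361), and without Hypoxia 1 the change was 0.68. The other Mfn2 probe set was dimmer than the filter and was not tested, with 101 ± 49.6 in Hypoxia and 40.3 ± 38.3 in Control (SD, n = 4 each). Mfn1 had signals of 4967.7, 4517.8, 4178.8 and 3953.4 in Hypoxia 1 to 4, against 4660.3, 4009.7, 4434.4 and 4458.7 in Control 1 to 4, on its brightest probe set, which can bind related transcripts. The groups overlapped throughout, and the change was 0.00 (95% interval -0.28 to 0.29, adjusted p = 0.996). Its other probe sets changed by -0.12 and 0.06 without passing.

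A factor that scales a whole array nearly cancels in a difference between 2 probe sets of that array, and 3 pairs of partner genes were compared in this way on their brightest probe sets. The log2 difference of Mfn2 minus Mfn1 averaged 0.91 ± 0.24 in Hypoxia and 0.15 ± 0.19 in Control (SD, n = 4 each). All 4 Hypoxia arrays lay above all 4 Control arrays, by 0.76 on average (exact two-sided permutation p = 0.0286, the smallest that 4 against 4 arrays allow, and 0.0429 adjusted over the 3 pairs). Oma1 minus Yme1l1 averaged -0.53 ± 0.21 in Hypoxia and 0.38 ± 0.31 in Control, again without overlap (difference -0.92, exact permutation p = 0.0286, adjusted 0.0429). Mff minus Fis1 averaged 2.68 ± 0.31 in Hypoxia and 2.61 ± 0.38 in Control, with overlapping values (difference 0.07, exact permutation p = 0.8286, adjusted 0.8286). After quantile normalization, which does not cancel in this way, the Mff minus Fis1 difference was 0.21 and did not pass (exact permutation, adjusted p = 0.4286). Without Control 1, 3 or 4 in turn, the differences of Mfn2 minus Mfn1 were 0.70, 0.74 and 0.77. Those of Oma1 minus Yme1l1 were -0.84, -1.02 and -0.99. Neither pair then passed (exact permutation, adjusted p = 0.0857 each time). Before adjustment, the exact permutation p of Mfn2 minus Mfn1 was 0.0571 each time. For Oma1 minus Yme1l1 it stayed at 0.0286, so its adjusted p was higher only through the adjustment over the 3 pairs. With any one of the other 5 arrays left out, both pairs passed (adjusted p = 0.0429).

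**Figure D3:**
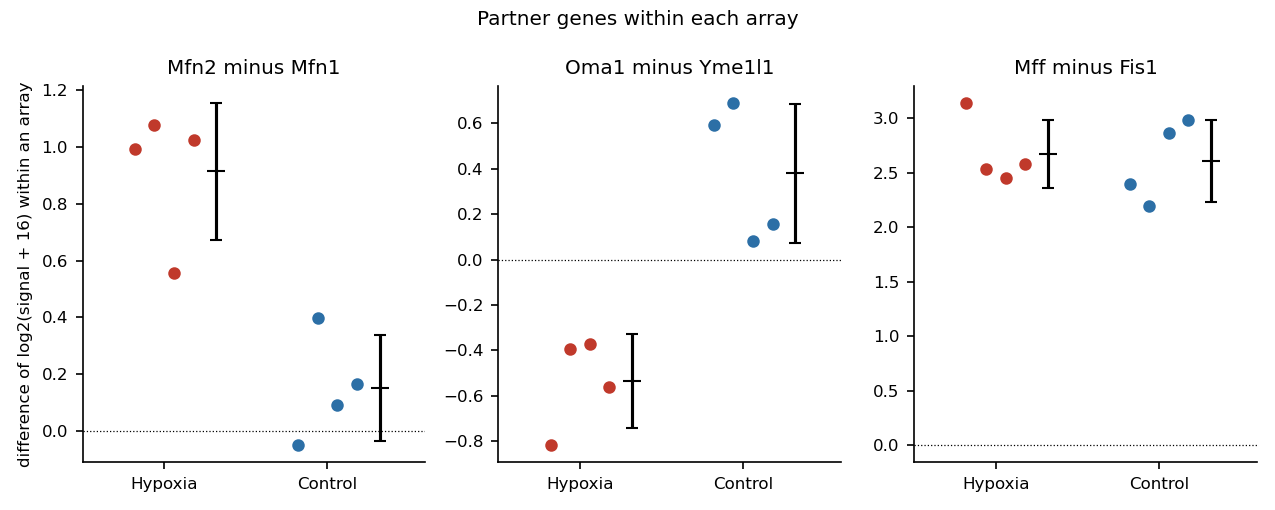
Difference of log2(signal + 16) between partner genes within each array, 1 point per array, Hypoxia left of Control, with the mean and SD of 4 arrays. Each panel has its own y axis. The groups are apart for Mfn2 minus Mfn1 and for Oma1 minus Yme1l1, and overlap for Mff minus Fis1.

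Oma1, the protease that cuts Opa1 under stress, had signals of 1090.2, 1090.3, 1066.4 and 1037.6 in Hypoxia 1 to 4, against 1860.1, 2032.2, 1353.9 and 1800.2 in Control 1 to 4. The Hypoxia values were almost alike, and Control 3 was the lowest of its group but still 1.24-fold above them. Oma1 fell by 0.69 on the log2 scale (SE 0.16, 1.62-fold, n = 4 per group, adjusted p = 0.00511), with -0.70 when Hypoxia 1 was left out. It has 1 probe set. Yme1l1, the other protease of Opa1, had signals of 1933.8, 1435.5, 1382.2 and 1538.0 in Hypoxia 1 to 4, against 1227.0, 1254.1, 1279.4 and 1612.1 in Control 1 to 4. The groups overlapped through Control 4, and the change of 0.22 did not pass (adjusted p = 0.339). The other tested Yme1l1 probe sets changed by -0.11 and 0.17 without passing, and the one below the filter was lower in every Hypoxia array (31.7 ± 10.8 in Hypoxia and 85.9 ± 35.5 in Control, SD, n = 4 each).

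Opa1 had 3 probe sets with unequal values. The brightest had signals of 5148.0, 2985.0, 3243.9 and 3490.2 in Hypoxia 1 to 4, against 3645.2, 3752.0, 3486.2 and 4120.3 in Control 1 to 4. Hypoxia 1 was above every Control array and Hypoxia 2 and 3 were below every Control array, and the change of -0.04 did not pass (adjusted p = 0.882). Another Opa1 probe set changed by -0.33 with no overlap between the groups and did not pass (578 ± 49.9 in Hypoxia and 732 ± 73.0 in Control, SD, n = 4 each, adjusted p = 0.138 by limma). The last one had signals of 243.7, 388.4, 535.8 and 455.0 in Hypoxia 1 to 4, against 872.6, 915.2, 478.9 and 651.2 in Control 1 to 4. It fell by 0.83 (SE 0.26, adjusted p = 0.032), although Hypoxia 3 lay above Control 3. Without Hypoxia 1, where it was lowest, the change was -0.62 and did not pass (adjusted p = 0.0677). Hypoxia 1, the array with the high 3' to 5' ratios, was the highest of the 8 arrays on 8 of the 21 tested probe sets, those being all 3 of Mff and the brightest ones of Opa1, Dnm1l, Yme1l1, Mfn1 and Mfn2. It was the lowest on 5, the last Opa1 probe set and the 2 dimmer tested ones each of Dnm1l and Mfn1. The part of RNA integrity in these values was not tested.

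The promoters of the 4 genes whose brightest probe set passed are shown because Mss51, Mtfp1 and Oma1 were lower together while Mfn2 was higher. Each is the 250 bases before the annotated start site from RefSeq on build GRCm38.p6, read 5' to 3' on the gene's strand, and all 10 genes matched an entry. Mss51 lies at chr14:20496902-20497151, Mtfp1 at chr11:4095432-4095681 and Mfn2, whose first of 3 entries is shown, at chr4:147904910-147905159, all on the minus strand. Oma1 lies at chr4:103313596-103313845 on the plus strand. Capitals mark the core letters of the hypoxia response element, ACGTG or GCGTG on either strand.
Mss51: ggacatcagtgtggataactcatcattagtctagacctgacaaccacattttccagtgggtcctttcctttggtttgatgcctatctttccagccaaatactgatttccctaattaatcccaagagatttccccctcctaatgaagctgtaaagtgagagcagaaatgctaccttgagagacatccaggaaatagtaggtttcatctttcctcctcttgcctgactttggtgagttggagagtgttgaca
Mtfp1: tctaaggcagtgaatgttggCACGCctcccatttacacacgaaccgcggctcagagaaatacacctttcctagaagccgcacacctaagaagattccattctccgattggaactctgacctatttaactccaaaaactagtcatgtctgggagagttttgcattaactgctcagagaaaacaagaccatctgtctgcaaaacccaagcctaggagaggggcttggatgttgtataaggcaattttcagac
Oma1: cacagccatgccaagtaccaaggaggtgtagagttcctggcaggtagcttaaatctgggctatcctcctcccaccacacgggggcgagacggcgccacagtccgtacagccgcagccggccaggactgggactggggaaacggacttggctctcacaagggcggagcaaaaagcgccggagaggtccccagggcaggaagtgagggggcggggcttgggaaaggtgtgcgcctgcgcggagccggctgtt
Mfn2: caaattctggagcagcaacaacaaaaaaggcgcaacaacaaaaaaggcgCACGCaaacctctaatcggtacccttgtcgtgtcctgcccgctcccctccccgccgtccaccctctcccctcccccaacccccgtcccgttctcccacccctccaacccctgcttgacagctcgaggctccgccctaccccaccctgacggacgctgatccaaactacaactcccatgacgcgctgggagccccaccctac
The core was found once in Mtfp1 and once in the shown Mfn2 entry, and not in Mss51 or Oma1, while 38.6% of all 32851 promoter windows of this length hold it. GC boxes (GGGCGG, either strand) were found in Oma1, with 2 matches, and in the shown Mfn2 entry, with 1, and in 32.7% of all windows. An E-box (CANNTG, which reads alike on both strands) was found once in Mtfp1 and in 66.2% of all windows. A CCAAT box (either strand) was found once in Mtfp1 and in 33.8% of all windows. The shown windows held no TATA box, no NRF1, FoxO or cyclic AMP response site and no estrogen-related receptor half-site. Mss51 matched none of the patterns searched. The Mfn2 entries not shown each hold 1 E-box and no GC box, and they hold 1 and 2 hypoxia cores. Their windows overlap, and the E-box and 1 core are the same bases in both. An E-box can overlap the hypoxia core. The G and C content was 43.2% for Mss51 and 45.6% for Mtfp1, below the median of 52.4% over all windows, and 64.8% for Oma1 and 62.0% for Mfn2, above it. A match of letters is a description of the window only.

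Other genes of mitochondrial shape were read from 5 lists on each gene's brightest probe set. Of 57 listed genes 53 had a probe set of their own and 50 were tested, of which 11 were higher and 13 lower (22.0% and 26.0%). Over the brightest tested probe set of all 13258 genes, 31.9% passed, 14.0% higher and 17.8% lower, with a median change of -0.04. The median of the 50 genes was -0.11. Of the genes named below, Opa3, Micos10, Phb2, Afg3l2 and Prkaca have a brightest probe set of a type that can bind other transcripts.

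**Figure D4:**
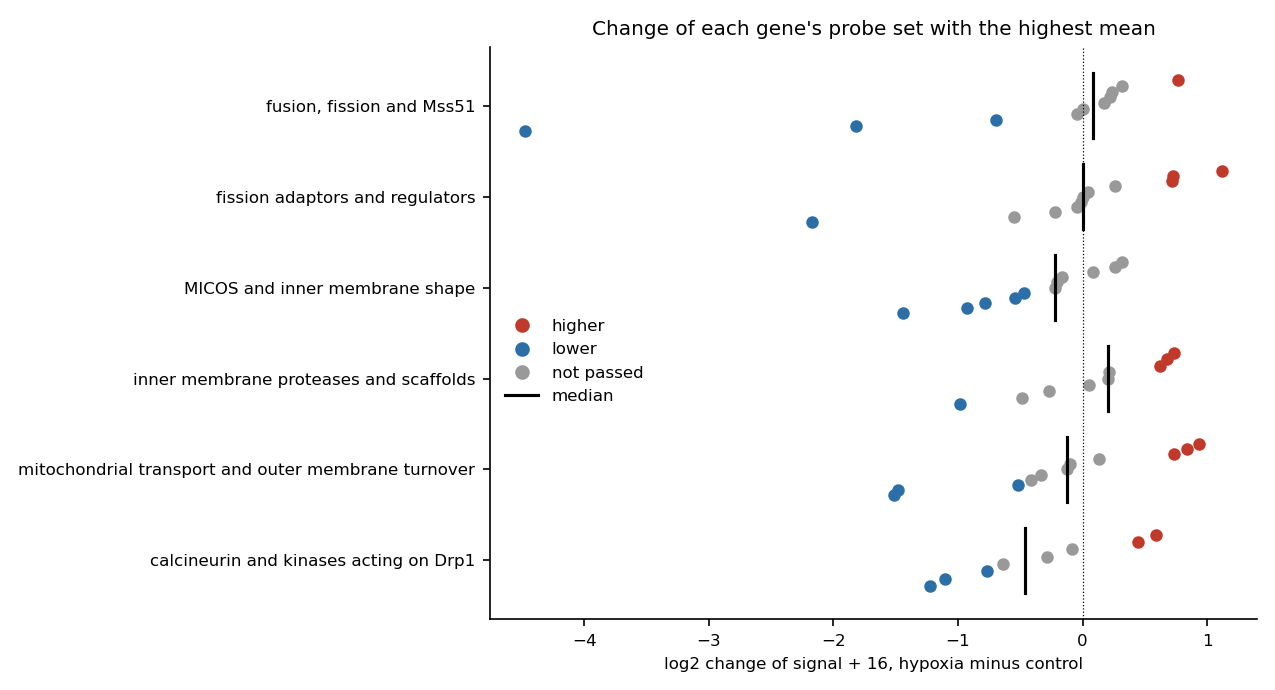
Log2 change of signal plus 16, Hypoxia minus Control, of each gene's brightest probe set, 1 point per gene, for the fusion and fission genes with Mss51 and for 5 related lists. Red and blue points passed as higher and lower, grey points did not pass, and the black line is the median of a list. The list of the MICOS complex and inner membrane shape has 5 blue points and no red one.

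Of 11 genes of the MICOS complex, which holds the cristae junctions, and of inner membrane shape, 5 fell and 0 rose (median -0.22). Chchd3, a core MICOS subunit, fell by 0.93, with 6127 ± 791 in Hypoxia and 11625 ± 922 in Control (SD, n = 4 each, adjusted p = 0.00031 by limma), but 2 dimmer probe sets changed by 0.00 and -0.16 without passing. Micos10 fell by 0.79, and by 0.74 on another probe set, while a dim one changed by 0.10 without passing. Apool fell by 0.47. Opa3, an inner membrane protein mutated in optic atrophy, fell by 1.44, and its other probe sets changed by -0.51, -1.38 and -0.39, of which the last did not pass. Immt, the central MICOS scaffold also called mitofilin, was at 7446 ± 664 in Hypoxia and 6182 ± 176 in Control (SD, n = 4 each) and did not pass (0.26, adjusted p = 0.133 by limma), nor did its other probe sets (-0.60 and -0.06).

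Fission adaptors and regulators were mixed, with 3 of 11 higher and 1 lower (median 0.00). Gdap1, an outer membrane protein mutated in a form of Charcot-Marie-Tooth disease, fell by 2.17, with 259 ± 69.2 in Hypoxia and 1212.5 ± 235 in Control (SD, n = 4 each, adjusted p = 1.91e-05 by limma), and its other probe sets changed by -1.53, -0.03 and -3.22, of which the middle one did not pass. Spire1, an actin nucleator, rose by 1.12 and on another probe set by 0.97, while a dim one changed by 0.42 without passing. Slc25a46, an outer membrane member of the carrier family, rose by 0.73, but its other probe set changed by 0.24 without passing. The phosphatase Pgam5 rose by 0.72. Mief1 and Mief2, receptors that recruit Drp1, changed by 0.26 and -0.01 on their brightest probe sets without passing, but the other Mief1 probe set rose by 0.91 (adjusted p = 0.00437).

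Among inner membrane proteases and scaffolds, 3 of 9 rose and 1 fell (median 0.21). Spg7, the paraplegin subunit of the m-AAA protease, fell by 0.99, while Afg3l2, its partner subunit, rose by 0.62 on its brightest probe set and changed by 0.33 and -0.48 on others without passing, so Afg3l2 is uncertain. Phb2, a prohibitin scaffold, rose by 0.68, and of its other probe sets 1 rose by 0.46 while those at 0.30 and 0.50 did not pass. Clpp, a matrix protease, rose by 0.73.

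In the list of mitochondrial transport and outer membrane turnover, 3 of 11 rose and 3 fell (median -0.12). Rhot2, which links mitochondria to motor proteins, fell by 1.51, with 411 ± 128 in Hypoxia and 1159 ± 153 in Control (SD, n = 4 each). Miga2, which promotes fusion at the outer membrane, fell by 1.48, though 1 dim probe set changed by 0.41 without passing. Bnip3, a mitophagy receptor and known target of hypoxia-inducible factor, rose by 0.84, with 26335 ± 3002 in Hypoxia and 14720 ± 1335 in Control (SD, n = 4 each). Marchf5, a ubiquitin ligase that acts on mitofusins and Drp1, rose by 0.94 on its brightest probe set and by 1.12 and 0.87 on others, while the remaining one fell by 1.29, so its probe sets differ in sign. Among calcineurin subunits and kinases or SUMO proteases that act on Drp1, 2 of 8 rose and 3 fell (median -0.46). The calcineurin subunits Ppp3cb and Ppp3r1 fell by 1.11 and 0.77, and the subunit Ppp3cc rose by 0.59. Other probe sets of Ppp3cb at -0.64 and of Ppp3cc at 0.80 did not pass. The subunit Ppp3ca changed by -0.29 on its brightest probe set without passing, but its other probe sets passed at -0.61 and -0.64. Prkaca, a catalytic subunit of protein kinase A, fell by 1.22, but its other probe set changed by -0.31 without passing.

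The genes whose profile lay nearest to Mss51 and Mfn2 were found over 8 arrays among 12478 other genes, after each log2 profile was centred on its own mean. The measure was the root mean square difference in log2 units, and since both genes differed between the groups it picks genes that differ by a like amount. Nearest to Mss51 were Podxl2 (0.34), Igfbp5, which binds insulin-like growth factors (0.42), Fam131a (0.42), Pi16 (0.42) and Nrep (0.43), with log2 changes of -4.02, -3.90, -4.11, -4.45 and -4.63. Podxl2, Fam131a and Pi16 averaged 13.4, 32.7 and 51.7 in Hypoxia, below the filter's signal of about 90.2, so their changes and their closeness to Mss51 depend on the added 16. Nearest to Mfn2 were Adipor1, a receptor of adiponectin (0.05), Slain2, Cript, Man1a2 and Zfp639 (0.07 each), with log2 changes of 0.70, 0.70, 0.71, 0.85 and 0.76. The probe sets of Igfbp5, Nrep and Adipor1 used here are of types that can bind other transcripts.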

How the data were processed

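Total RNA of quadriceps from 4 Hypoxia and 4 Control samples was measured on 1 Affymetrix array each, per the labels. The deposited values are linear MAS5 signal intensities per probe set, per the submitters' processing notes. The MAS5 version and detection calls were not given in the sources used here. On each array the 2% trimmed mean signal was 500.0, and this scaling by the authors was kept. With such scaling, a change in bright transcripts inside the trimmed range moves all signals, while the trimmed values do not enter the mean. Array number, not depth, limits the precision.

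Of 45101 probe sets, 64 controls and the 40% with the lowest mean log2(signal + 16) were left out, a filter at a signal of about 90.2. The added 16 understates changes of dim probe sets. Hypoxia was compared with Control for 27023 probe sets in limma 3.58.1 (R 4.3.3, eBayes with an intensity trend, two-sided, Benjamini-Hochberg adjustment). Genes were named from the platform annotation, updated by gene identifier (99.4% matched). Named are the 10 genes, up to 4 genes per list with the smallest p, and the 5 nearest profiles of Mss51 and Mfn2. Mief1, Mief2, Immt, Ppp3ca and the fibre and macrophage markers were named after their values were seen. The genes and lists were chosen with earlier results of these data known. Arrays correlated at 0.920 to 0.952 within Hypoxia, 0.943 to 0.952 within Control and 0.849 to 0.890 between groups, and none were identical. The fit was tested on simulated data.

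Alternatives changed the scaling (quantile or median), the added constant (1 or 64), the filter (none or 60%), the variance model, the weights of arrays, the unit (1 probe set per gene) or the block (replicate number), or left out each array.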

Additional observations from a re-analysis of the deposited data

Results flagged for a closer look

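In 50 groups of 4 arrays (25 probe sets in each of the Hypoxia and Control groups), 4 held an array far from the other 3, and chance marks about 1 in 20 such groups. The Dnm1l probe set that can bind other transcripts was at 46.8 in Hypoxia 1, where Hypoxia 2 to 4 had 322.8 to 373.4. The remaining 3 arrays were all Control 4. It had 328.3 on the dimmest Mfn1 probe set, where the other Control arrays had 393.0 to 407.3. On an Opa1 probe set it had 623.6, where the others had 756.4 to 776.0. On the brightest Yme1l1 probe set it had 1612.1, where the others had 1227.0 to 1279.4. None of these 4 probe sets passed the test between the groups.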

How the results depend on the processing

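Mss51, Mtfp1, Oma1 and the bright Mfn2 probe set kept their direction and passed under all 19 alternatives, with changes from -4.70 to -4.34, -1.95 to -1.66, -0.81 to -0.61 and 0.65 to 0.91. The Mff probe set that rose passed in the 18 alternatives that tested it (0.63 to 0.90). The Opa1 call at -0.83 was lost in 8 of 18, among them no filter (adjusted p = 0.0504) and 5 arrays left out in turn (-0.87 to -0.62), and the cause was not tested. The Fis1 probe set at 0.48 passed in 4 of 18. With 1 probe set per gene as the unit, 1 of the 10 genes was higher and 3 lower. Of all 13258 genes in that fit, 1959 were higher and 2489 lower, against 3368 and 4422 of 27023 probe sets. In the fit of all probe sets, 14.0% of the brightest probe sets of these genes were higher and 17.8% lower. With each array left out in turn, 2 to 3 of the 21 probe sets were higher and 3 to 4 lower, all probe sets higher numbered 2616 to 3379 and lower 3481 to 4699, and list genes 9 to 11 and 11 to 13. Mfn2 minus Mfn1 then ranged from 0.70 to 0.88, Oma1 minus Yme1l1 from -1.02 to -0.81, and Mff minus Fis1 from -0.09 to 0.19. The first 2 pairs did not pass without Control 1, 3 or 4 (exact permutation, adjusted p = 0.0857). Before adjustment their exact permutation p was then 0.0571 for Mfn2 minus Mfn1 and 0.0286 for Oma1 minus Yme1l1. Deviations of same-numbered samples from their group means correlated at -0.07 to 0.01 across 27023 probe sets. This does not settle whether the replicate numbers pair the samples. With the replicate numbers as a block, 2 of the 21 probe sets were higher and 3 lower, the Opa1 call being lost (adjusted p = 0.0625 by limma). Of all 27023 probe sets, 2952 were then higher and 3930 lower.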
